A study of Mus musculus with 2 samples.

Results

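The miR-302/367 and miR-290 clusters are the microRNA genes best known from mouse embryonic stem cells and the early embryo. The 9 genes described here are Mir302a, Mir302b, Mir302c, Mir302d and Mir367 of the first cluster and Mir291a, Mir293, Mir294 and Mir295 of the second. They were taken by gene name, whatever their level, from 1973 microRNA genes counted in each library. Small RNA of under 30 bases was sequenced from lungs of B6NCrl mouse embryos at embryonic day 16.5, all healthy, with male and female embryos pooled. A single group of 2 biological replicates was measured, with no treatment, genotype or other age to set against it. Lungs of 41 embryos went into replicate 2, and the labels give no such number for replicate 1. In pooled whole tissue, few cells with much of a microRNA and many cells with little of it cannot be told apart.

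A microRNA gene is transcribed into a hairpin, from which mature RNAs of 21 to 23 bases (for these 9 genes) are cut from the 5′ arm and the 3′ arm. Bases 2 to 8 of a mature RNA, its seed, do most of the pairing with target messenger RNAs. In mouse embryonic stem cells the microRNAs of both clusters that carry the AAGUGC core in the seed promote rapid passage through the cell cycle, and miR-291a-3p, miR-294-3p and miR-295-3p raise the efficiency of reprogramming to pluripotency. In the developing mouse lung the miR-302/367 cluster is known from early endoderm, where it affects the balance between proliferation and differentiation of progenitors. Both clusters decline as cells differentiate.

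The mature sequences below show what the genes share and what sets them apart. They come from the RefSeq table of build GRCm38.p6, run 5′ to 3′, and have the seed in capitals. All 9 genes matched this table, and the 3′-arm sequence is given for 8 of them. The 3′-arm RNA of Mir302a was not analysed here, so Mir302a is in none of the 3′ seed groups below, which says nothing of its seed. Its 5′-arm sequence is shown, with that of Mir302b for comparison.
miR-302b-3p: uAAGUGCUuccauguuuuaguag
miR-302d-3p: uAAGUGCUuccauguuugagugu
miR-302c-3p: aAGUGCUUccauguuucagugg
miR-291a-3p: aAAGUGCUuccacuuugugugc
miR-294-3p: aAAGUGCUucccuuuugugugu
miR-295-3p: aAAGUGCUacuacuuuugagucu
miR-293-3p: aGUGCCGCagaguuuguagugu
miR-367-3p: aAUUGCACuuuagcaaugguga
miR-302a-5p: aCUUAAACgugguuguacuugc
miR-302b-5p: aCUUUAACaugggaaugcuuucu

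The seed AAGUGCU was shared by 5 of the 8 genes with a 3′-arm sequence: Mir302b, Mir302d, Mir291a, Mir294 and Mir295. No gene outside the 9 had this seed in the RefSeq table. The annotated miR-302c-3p starts 1 base further in, so its seed reads AGUGCUU although the core is the same. miR-293-3p has the seed GUGCCGC and miR-367-3p the seed AUUGCAC, and these stand outside the group. The mature RNAs miR-302b-3p and miR-302d-3p are alike over their first 17 bases. The counts were made per hairpin gene and not per arm, so they do not say how many reads came from each sequence shown.

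The Mir302 genes lie on the plus strand of chromosome 3, within 580 bases from 127545228 to 127545807 (mm10), in an intron of Larp7, which runs on the opposite strand. The order along the strand is Mir302b, Mir302c, Mir302a, Mir302d and Mir367. The Mir290 cluster lies on the plus strand of chromosome 7 from 3218626 to 3220841, a span of 2216 bases. All 4 members there overlap an annotated exon of Nlrp12 on the opposite strand. Mir302a (ENSMUSG00000065552.1) is at 127545496 to 127545564, Mir302d (ENSMUSG00000065447.1) at 127545624 to 127545689 and Mir302b (ENSMUSG00000076252.1) at 127545228 to 127545301. Mir293 (ENSMUSG00000078035.1) is at 3220343 to 3220422 and Mir294 (ENSMUSG00000077903.1) at 3220641 to 3220724. In the column taken as the strand opposite to the hairpin, no read of any of the 9 genes was counted in either library.

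The libraries held 6376715 gene counts in replicate 1 and 4123748 in replicate 2. Levels are given as CPM, counts scaled to 1000000 gene counts in each library, and are not divided by length because a small RNA read spans a mature molecule. A count of 0 is taken here to allow up to 3 counts, which is 0.470 CPM in replicate 1 and 0.727 CPM in replicate 2. Intervals are exact Clopper-Pearson intervals at 95% and cover counting error only, not the spread between lungs. Reads that carry no molecular identifier can be copies of 1 molecule, and where they are, the intervals are too narrow. The labels call the libraries biological replicates, and any SD below is over these 2. The lung label was set beside 11 microRNAs listed as abundant markers of endothelium, mesenchyme, epithelium, multiciliated and neuroendocrine cells. Genes listed as abundant were likely to be detected, so this list cannot tell lung from other organs. All 11 were detected, with mean levels between 1028 CPM (Mir200a) and 83199 CPM (Mir126a, of endothelium), and they held 21.3% of gene counts in replicate 1 and 21.2% in replicate 2.

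Both clusters were present at trace levels in this lung. All 9 genes together had 259 counts in replicate 1 and 161 in replicate 2, which is 40.6 CPM (interval 35.8 to 45.9) and 39.0 CPM (33.2 to 45.6). The sum was 1.04-fold higher in replicate 1 (0.851 to 1.27), so the libraries did not differ in it beyond counting error. A gene is called detected here with at least 10 counts in each library, and 5 of the 9 genes met this: Mir302a, Mir302b, Mir302d, Mir293 and Mir294. Over all microRNA genes 17.6% were detected. Among the members, Mir294 was the lowest above this limit, with 20 and 17 counts, and Mir302c the highest below it, with 8 and 1 counts in replicates 1 and 2.

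Mir302a was the highest of the 9 genes. It had 107 counts in replicate 1 and 52 in replicate 2, which is 16.8 CPM (13.8 to 20.3) and 12.6 CPM (9.42 to 16.5), and averaged 14.7 CPM ± 2.95 (SD, n = 2). By mean level it stood at rank 268 of the 347 detected genes. Even the highest member was thus in the lower part of the detected range. The 3 detected genes closest to it in log2(CPM + 1) over both libraries were Mir218-1 (16.6 and 12.4 CPM), Mir1249 (14.4 and 13.3 CPM) and Mir450-2 (15.5 and 10.9 CPM).

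Mir302d and Mir302b carry the AAGUGCU seed and followed in order of level. Mir302d had 52 counts in replicate 1 and 47 in replicate 2, or 8.15 CPM (6.09 to 10.7) and 11.4 CPM (8.37 to 15.2), with a mean of 9.78 CPM ± 2.29 (SD, n = 2). Mir302b had 38 and 22 counts, or 5.96 CPM (4.22 to 8.18) and 5.33 CPM (3.34 to 8.08), with a mean of 5.65 CPM ± 0.441 (SD, n = 2). The values of Mir302a, Mir302d and Mir302b did not overlap between genes over the 2 libraries. Counting error was wider than these gaps in part. The intervals of Mir302a and Mir302d overlapped in replicate 2, and those of Mir302d and Mir302b overlapped in replicate 1.

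Mir302c, which shares the core of the seed, was far below its neighbours although its hairpin lies between those of Mir302b and Mir302a. It had 8 counts in replicate 1 and 1 count in replicate 2, or 1.25 CPM (0.542 to 2.47) and 0.242 CPM (0.00614 to 1.35). The replicate 2 value is under the limit of 3 counts there. In replicate 1 Mir302a had 13.4 times as many counts as Mir302c (6.55 to 31.8). Mir367, the last hairpin of the cluster and the one with the AUUGCAC seed, had 0 counts in both libraries. The limit of 3 counts is 0.470 CPM in replicate 1 and 0.727 CPM in replicate 2. Its exact intervals reach 0.578 CPM in replicate 1 and 0.895 CPM in replicate 2.

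**Figure D1:**
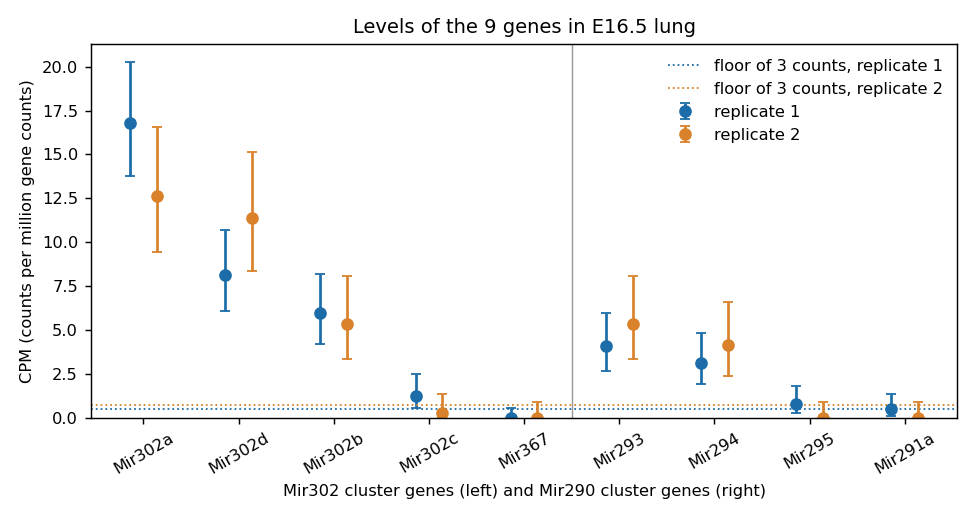
Level of each of the 9 genes in CPM (y axis) in replicate 1 (blue) and replicate 2 (orange), with exact 95% counting intervals as bars and the level of 3 counts as dotted lines. Mir302a (16.8 and 12.6 CPM) is the highest, and Mir302c, Mir367, Mir295 and Mir291a sit at or near the floor.

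In the Mir290 cluster, Mir293 and Mir294 made up most of the members' reads. Mir293, whose mature RNAs do not carry the AAGUGCU seed, had 26 counts in replicate 1 and 22 in replicate 2, or 4.08 CPM (2.66 to 5.97) and 5.33 CPM (3.34 to 8.08), with a mean of 4.71 CPM ± 0.889 (SD, n = 2). Mir294, with the AAGUGCU seed, had 20 and 17 counts, or 3.14 CPM (1.92 to 4.84) and 4.12 CPM (2.40 to 6.60), with a mean of 3.63 CPM ± 0.697 (SD, n = 2). Mir293 had 1.30 times the counts of Mir294 in replicate 1 (0.698 to 2.46) and 1.29 times in replicate 2 (0.656 to 2.60). Both ratios lay within counting error of 1, and Mir293 overlapped with Mir302b as well.

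The other members of this cluster were at the limit of what the depth can show. Mir295 had 5 counts in replicate 1 (0.784 CPM, 0.255 to 1.83) and 0 in replicate 2. Mir291a had 3 counts in replicate 1 (0.470 CPM, 0.0970 to 1.37) and 0 in replicate 2. Neither could be told from the other or from Mir302c at this depth. Their mature 3′ RNAs carry the same AAGUGCU seed as that of Mir294, from which miR-291a-3p departs only after the first 11 bases.

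The rest of the Mir290 cluster was read from a list that includes Mir290a, Mir291b and Mir292, and 1 of these 3 genes was detected. Mir292 had 10 counts in each library, or 1.57 and 2.42 CPM in replicates 1 and 2. Mir291b had 7 counts and Mir290a 2 counts in replicate 1, and both had 0 in replicate 2. The opposite-strand genes Mir290b and Mir292b of the same list were not among the 1973 genes counted. With all 7 genes the Mir290 cluster came to 11.4 CPM in replicate 1 (8.97 to 14.4) and 11.9 CPM in replicate 2 (8.79 to 15.7).

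**Figure D2:**
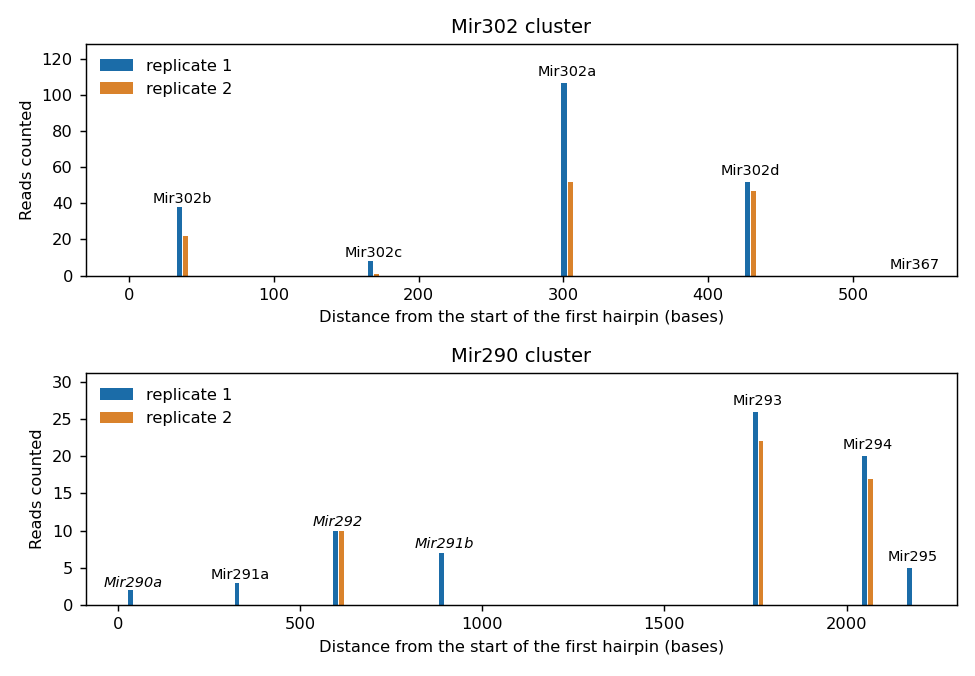
Reads counted per gene (y axis) against the position of its hairpin in bases from the start of the first hairpin (x axis), for the Mir302 cluster (top) and the Mir290 cluster (bottom), in replicate 1 (blue) and replicate 2 (orange). Names in italics are Mir290 cluster genes outside the 9, and neighbouring hairpins differ widely, as with Mir302c (8 and 1) next to Mir302a (107 and 52).

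Between the clusters, the Mir302 genes had the higher sum in both libraries. The 5 Mir302 cluster genes had 205 counts in replicate 1 and 122 in replicate 2, or 32.1 CPM (27.9 to 36.9) and 29.6 CPM (24.6 to 35.3). The 4 Mir290 cluster members had 54 and 39 counts, or 8.47 CPM (6.36 to 11.0) and 9.46 CPM (6.73 to 12.9). The ratio of the 2 sums was 3.80 in replicate 1 (2.80 to 5.22) and 3.13 in replicate 2 (2.17 to 4.61), so both intervals lay above 1. Against all 7 Mir290 cluster genes the ratio was 2.81 (2.14 to 3.72) and 2.49 (1.77 to 3.54).

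Within the Mir302 cluster the intervals of each gene's share overlapped between the libraries, which does not show that the shares were equal. Mir302a took 52.2% of the cluster's reads in replicate 1 (45.1 to 59.2%) and 42.6% in replicate 2 (33.7 to 51.9%). Mir302d took 25.4% in replicate 1 (19.6 to 31.9%) and 38.5% in replicate 2 (29.9 to 47.8%). Mir302b took 18.5% in replicate 1 and 18.0% in replicate 2. Mir302a had 2.06 times the counts of Mir302d in replicate 1 (1.46 to 2.92) and 1.11 times in replicate 2 (0.731 to 1.68). These intervals overlap as well, the difference between the libraries was not tested, and the order of the genes was the same in both libraries.

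Differences between the libraries were tested per gene, over all 347 detected genes, with an exact binomial test (two-sided, conditional on each gene's total) and Benjamini-Hochberg adjustment. The test compares the reads of 2 libraries against counting error and holds no estimate of the spread between lungs. None of the 5 detected members was called at an adjusted p of 0.05, and none had an unadjusted p under 0.05, nor was any called with the scale of edgeR or of DESeq2. Over all detected genes 47.0% were called. The mean levels of the 5 members spanned 3.63 to 14.7 CPM, and of the 54 other detected genes within that range 6 were called, or 11.1%.

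Mir302d had the largest fold among the 5 and was 0.715-fold in replicate 1 relative to replicate 2 (0.473 to 1.09), with an adjusted p of 0.176 by the exact binomial test. Mir302a was 1.33-fold higher in replicate 1 (0.947 to 1.89), with an adjusted p of 0.181 by the same exact test. The ratio of replicate 1 over replicate 2 was 1.12 for Mir302b (0.644 to 1.98), 0.764 for Mir293 (0.416 to 1.41) and 0.761 for Mir294 (0.379 to 1.55). All 5 lay within 1.5-fold, and 314 of all 347 detected genes did so. The median difference in either direction was 1.31-fold for these 5 genes, 1.24-fold for the 54 others in their range and 1.12-fold for all detected genes.

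**Figure D3:**
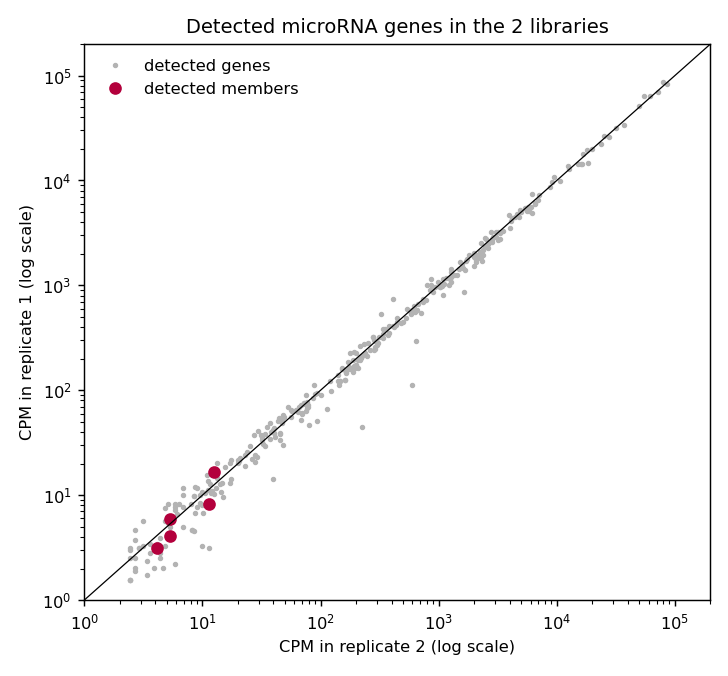
CPM in replicate 1 (y axis) against CPM in replicate 2 (x axis) for the 347 detected microRNA genes (grey) and the 5 detected members (red), on log scales, with the line of equal levels. The members lie in the lowest part of the range, between 3.14 and 16.8 CPM, within 1.5-fold of the line.

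MicroRNAs with a near-identical seed were far more abundant in the same lungs. miR-17-5p and its relatives, which promote proliferation of embryonic lung progenitors, have the AAGUGC core moved by 1 base within the seed. The sequence of miR-17-5p shows this shift when set beside miR-302b-3p above, and that of miR-92b-3p shows the seed it shares with miR-367-3p.
miR-17-5p: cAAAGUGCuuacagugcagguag
miR-92b-3p: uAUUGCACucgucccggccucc

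The 5 members with the AAGUGCU seed together had 18.5 CPM in replicate 1 and 20.9 CPM in replicate 2, against 40489 and 37493 CPM for the 6 genes Mir17, Mir20a, Mir20b, Mir93, Mir106a and Mir106b. The sum of these 6 was 2188-fold above that of the 5 members in replicate 1 and 1798-fold in replicate 2. The 5 members do not include Mir302a, and against the sum of all 9 members the fold was 997 and 960. Mir17 alone averaged 18856 CPM ± 1119 and the lowest of the 6, Mir20b, 292 CPM ± 14.6 (SD, n = 2), so each lay above Mir302a. Mir6383 has the same shifted seed and had 0 counts in both libraries. With bases 2 to 7 alone as the criterion, the mature RNAs analysed here gave 3 genes outside the 9 that share AAGUGC. They were Mir350, Mir291b and Mir290a, and 1 of these was detected. The 3′-arm RNA of Mir292 was not analysed here, so this count says nothing of Mir292.

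The seed of miR-367-3p was represented by other genes only. Mir367 had 0 counts, against a sum of 5496 CPM in replicate 1 and 6240 CPM in replicate 2 over the 6 other genes with the seed AUUGCAC. This sum was 11681-fold the limit of 3 counts in replicate 1 and 8577-fold that limit in replicate 2. The exact intervals of Mir367 reach higher than this limit, to 0.578 CPM in replicate 1 and 0.895 CPM in replicate 2. The 3 highest were Mir92-1 at 2675 CPM ± 92.1, Mir92b at 2027 CPM ± 436 and Mir25 at 448 CPM ± 1.17 (SD, n = 2). Mir92-1 and Mir92-2 give the same mature miR-92a-3p, so reads of these may match several loci and be counted too low.

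**Figure D4:**
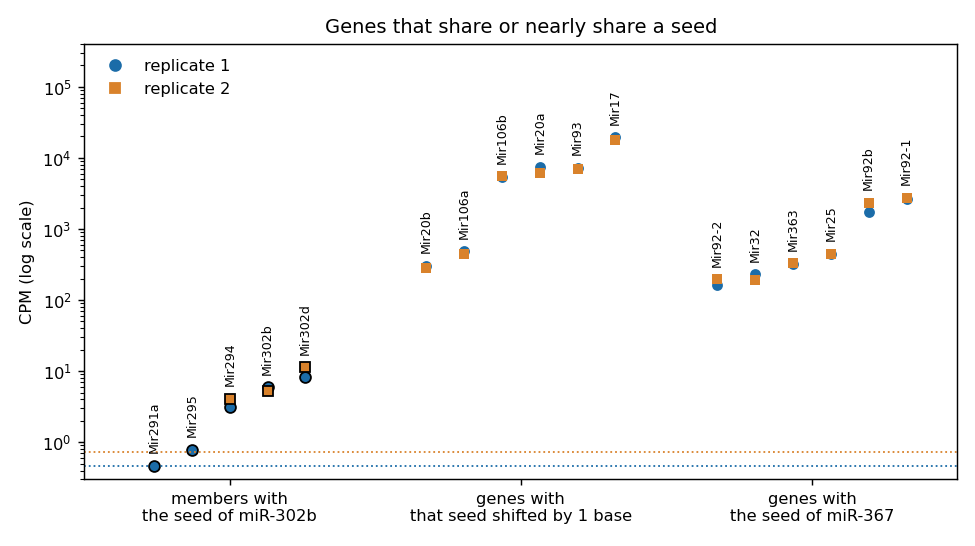
CPM on a log scale (y axis) in replicate 1 (circles) and replicate 2 (squares) for members with the seed of miR-302b-3p (outlined), genes with that seed shifted by 1 base and genes with the seed of miR-367-3p. Values of 0 and Mir302a (16.8 and 12.6 CPM, its 3′-arm RNA not analysed here) are not drawn, dotted lines mark 3 counts, and the 5 members drawn stay at or below 11.4 CPM while each relative drawn lies at 165 CPM or above.

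Reads that matched several loci had a line of their own and made up 30.0% of all reads in replicate 1 and 31.8% in replicate 2. None of the 9 hairpins shared 22 bases or more with another microRNA hairpin. The longest shared runs were 20 bases, between Mir302a and Mir302b and between Mir291a and Mir291b. Mir302d shared 17 bases and Mir302c 16 bases with Mir302b, and Mir367 shared at most 11 with any hairpin. Whether shortened reads of the Mir302 genes entered the line for several loci was not tested.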

How the data were processed

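Small RNA of E16.5 lung was sequenced in 2 libraries. The authors deposited raw read counts per microRNA gene, without normalization. They were made from alignments to mm10 with GENCODE release M4, per the file headers. No aligner or counter is named there. The first of 3 count columns was used. The columns are not named, and the others were taken by their order as sense and opposite strand. The first column equals their sum in all 1973 genes. Summary lines (unmapped, several loci, outside genes) stayed out of totals. Gene names and positions come from GENCODE M21 on mm10 (1894 identifiers matched), and mature sequences from RefSeq, for 916 of the genes. CPM uses the gene total of each library. With a single group no condition can be tested. Libraries were compared with the exact binomial test over all genes with at least 10 counts in each. This step was tested on simulated data with counting error alone and no spread between replicates. Power was required there only of genes with more counts than any member had. Alternatives covered the count minimum, strand, scaling (TMM of edgeR 4.0.16, size factors of DESeq2 1.42.0), denominator, pseudocount and each replicate left out. Python 3.11.15, scipy 1.17.1 and R 4.3.3 were used. The genes, lists and tests were chosen with earlier results of these data known. Named genes are the 9 members, the other Mir290 cluster genes, the genes of the same or shifted seed with the 3 highest per seed, and the 3 genes closest to Mir302a in level.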

Additional observations from a re-analysis of the deposited data

How the results depend on the processing

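The number of detected members was 5 with a minimum of 5 counts, with more than 3 counts, on the sense strand alone and from either library alone, and 4 with a minimum of 20 counts. No member was called under any of the 6 alternatives to the minimum, scale and column, which tested from 4 members (minimum of 20 counts) to 8 (no minimum). Their lowest adjusted p ranged from 0.124 (DESeq2 size factors) to 0.291 (no minimum). Over all genes 153 to 165 were called, against 163 of 347 in the main setting. The share called was less stable, because the number of genes tested changed with the minimum. It was 163 of 319 with a minimum of 20 counts and 160 of 709 with no minimum. Of the 163 in the main setting, 57 were higher in replicate 1 and 106 in replicate 2. The split was 74 and 84 with TMM factors and 78 and 75 with DESeq2 size factors. With all mapped reads as the denominator, which is larger by construction, the sums became 18.4 for the Mir302 cluster and 5.33 for the Mir290 members, per 1000000 mapped reads. Without 1 replicate they ranged from 29.6 to 32.1 CPM and from 8.47 to 9.46 CPM. The 3 genes closest to Mir302a were the same 3 with a pseudocount of 0.1. No paired analysis was possible because the labels give a single group. Depth limits the values of Mir302c, Mir295, Mir291a and Mir367, all under 10 counts in each library.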

Other observations

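The sparsely counted genes of both clusters had nearly all of their reads in replicate 1. This was seen in the data and not planned as a comparison. Mir302c (8 and 1 counts), Mir291b (7 and 0), Mir295 (5 and 0), Mir291a (3 and 0) and Mir290a (2 and 0) had 25 counts in replicate 1 and 1 count in replicate 2 together. Replicate 1 thus held 96.2% of their reads, while it held 60.7% of all gene counts. Over the 295 genes with 1 to 10 counts in total, replicate 1 held 57.8% of the reads (54.9 to 60.7%). Of these 295 genes, 70 had 0 counts in replicate 2 and 63 had 0 counts in replicate 1. The 5 detected members summed to 38.1 CPM in replicate 1 and 38.8 CPM in replicate 2. Detection required at least 10 counts in each library, so a gene nearly empty in replicate 2 could not be among them. Their balance is therefore no contrast to the sparse genes. The 5 sparse genes were put together after their counts were seen, so no test or interval is given for them, and the cause was not tested.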
